A study of Mus musculus with 10 samples.

Results

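Gpr183 (also known as Ebi2), the receptor through which immune cells follow oxysterols, and the enzymes Ch25h, Cyp7b1 and Hsd3b7, which make and remove its ligand, were followed in the terminal ileum of mice after repeated mild social defeat. The 4 genes were chosen by symbol, of 18193 genes that had a probe set with 1 symbol of their own, and all 4 passed the filter on low values. They were covered by 7 of 34945 such probe sets. Per gene, the probe set with the highest mean over the 10 arrays stood for the gene, a choice that did not use the groups. Those means were 5.34 against 4.81 on the log2 scale for the 2 probe sets of Gpr183, and 5.62 against 5.49 and 2.01 for the 3 of Cyp7b1.

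All samples came from male C57BL/6JJmsSlc mice, 7 weeks of age, on an AIN-93G diet, and the ileum was taken after 3 h without food. Of the 10 mice, 5 were unstressed controls. The other 5 went through 10 days of defeat by an older ICR male, with contact of 5 min on the first day and 0.5 min less on each following day, down to 0.5 min on the last. Each mouse gave 1 sample and 1 array, and its values are log2 probe set values from RMA, which corrects background and puts all arrays on a common distribution.

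Gpr183 is a G protein-coupled receptor of B cells, T cells, dendritic cells and innate lymphoid cells. Its main ligand is a dihydroxylated cholesterol. Ch25h adds the first hydroxyl group to cholesterol and Cyp7b1 the second, while Hsd3b7 oxidises the product to a form that no longer acts on the receptor. In lymphoid organs stromal cells make much of the ligand, and the resulting gradient places B cells at the edge of follicles. In the intestine the same pair of ligand and receptor is known for placing innate lymphoid cells and for the growth of lymphoid tissue. Cyp7b1 and Hsd3b7 also serve bile acid synthesis, and Ch25h is induced by interferon in macrophages.

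The array of control mouse 1 stood apart from the other 9. It correlated with them at 0.918 to 0.947 across genes, which are not independent of one another, where the others correlated among themselves at 0.975 to 0.995. The labelled tissue was checked with 13 markers of ileal enterocytes. Their mean was 8.21 in control mouse 1, 10.68 to 10.93 in the other controls and 10.90 to 11.45 in stressed mice. The mean of 7 measured genes of a large intestine list was 10.08 in control mouse 1 and 8.34 to 8.64 in the other controls. Most of its members were higher in control mouse 1 than in the other controls, but not all. Car1, a carbonic anhydrase of colon epithelium, was at 14.2 in control mouse 1 and 4.95 to 7.06 in the other controls. In stressed mice Car1 ranged from 4.95 to 13.3, so a high value was not particular to control mouse 1. Clca4b was at 5.74 in control mouse 1, 12.9 to 13.1 in the other controls and 12.1 to 12.9 in stressed mice. Clca1 in control mouse 1 lay among the other controls. The list mean in stressed mice was 8.03 to 9.96, with stressed mouse 4 at the top, and that mouse was kept in both comparisons. Every comparison is therefore given with all arrays and without control mouse 1. Over the whole array, limma called 0 of 13666 genes (0%) at a Benjamini-Hochberg adjusted p under 0.05 with all arrays, where 1069 were at an unadjusted p under 0.05. Leaving that mouse out, it called 109 genes (0.798%).

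Gpr183 was lower in the ileum of stressed mice. Cyp7b1 had a higher mean there, but it was not called and its groups overlapped. Neither Ch25h nor Hsd3b7 separated the groups. Gpr183 was the 1 gene of the 4 that was called, and that only without control mouse 1. There it fell by 0.51 ± 0.09 (SE) on the log2 scale (limma adjusted p = 0.0342), against a background of 0.534% of all genes called lower. On the linear scale its level dropped by 29.7 percent.

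**Figure D1:**
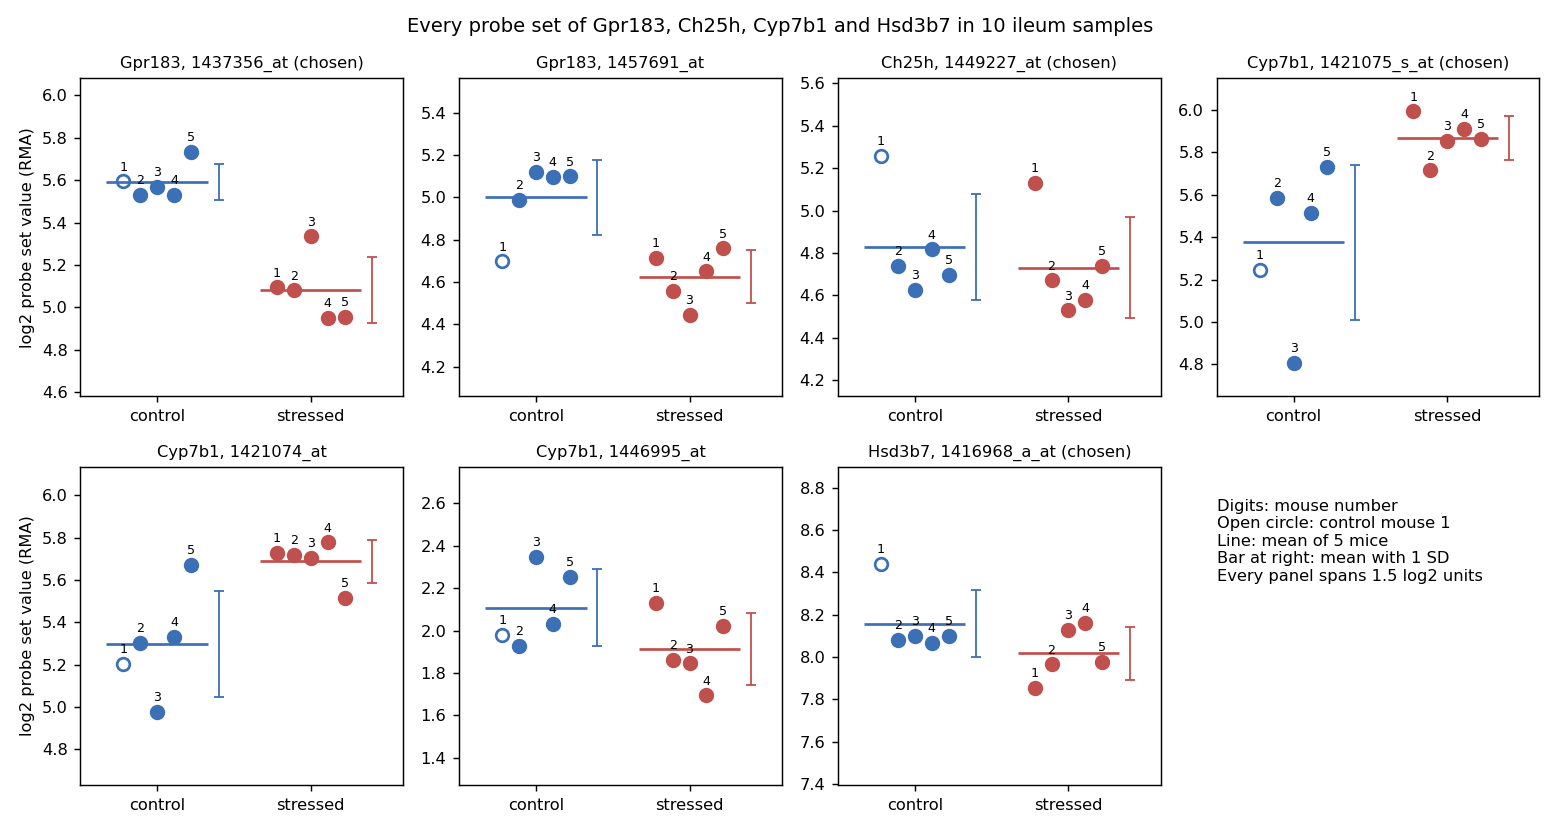
Log2 probe set values (vertical axis) of all 7 probe sets of the 4 genes in 5 control and 5 stressed mice, with a digit for the mouse number, an open circle for control mouse 1, a line for the mean and a bar for 1 SD. For the chosen probe set of Gpr183 the lowest control is at 5.53 and the highest stressed mouse at 5.33, while for Ch25h and Hsd3b7 the groups overlap.

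The receptor was measured by 2 probe sets. At 1437356_at, the chosen one, control mice 1 to 5 were at 5.59, 5.53, 5.57, 5.53 and 5.73 on the log2 scale. Stressed mice 1 to 5 were at 5.09, 5.08, 5.33, 4.95 and 4.96. The controls lay within a narrow band and control mouse 1 sat inside it, unlike in most marker lists of immune cells described here. All 5 stressed mice were below all 5 controls, with stressed mouse 3 closest to them at a gap of 0.20. Among the 13666 genes tested, the groups did not overlap and stressed mice were lower in 1.12% with all arrays and in 2.72% without control mouse 1.

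The mean of Gpr183 was 5.59 ± 0.08 (SD, n = 5) in controls and 5.08 ± 0.16 (SD, n = 5) in stressed mice. The difference with all arrays was -0.51 ± 0.09 (SE), 95% interval -0.70 to -0.32, and Gpr183 was sixth of all genes by its p (unadjusted p = 0.000119, limma adjusted p = 0.252). The size hardly moved without control mouse 1, and its p there (unadjusted p = 0.000150) ranked 60 among all genes. The Benjamini-Hochberg adjustment weighs a p against its rank among all genes, so that a similar p had a lower adjusted p at the higher rank number. Over all genes, 2458 were at an unadjusted p under 0.05 without control mouse 1 and 1069 with it. In a piece of whole ileum, fewer cells that carry Gpr183 and less Gpr183 RNA per cell cannot be told apart.

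The call of Gpr183 depended on which mice were in the comparison. In the comparison of 9 arrays, leaving out 1 further mouse ended it in 7 of 9 cases (control mouse 2, 3, 4 or 5, or stressed mouse 1, 4 or 5), with limma adjusted p of 0.0623 to 0.0992. In all 9 cases the difference stayed between -0.57 and -0.46. Array weights (adjusted p = 0.0520), each probe set as its own feature (adjusted p = 0.0507) and the 3′ over 5′ signal of control transcripts as a covariate (adjusted p = 0.0699) ended the call as well. With the mean of both probe sets as the value of the gene, it held (adjusted p = 0.0134).

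**Figure D2:**
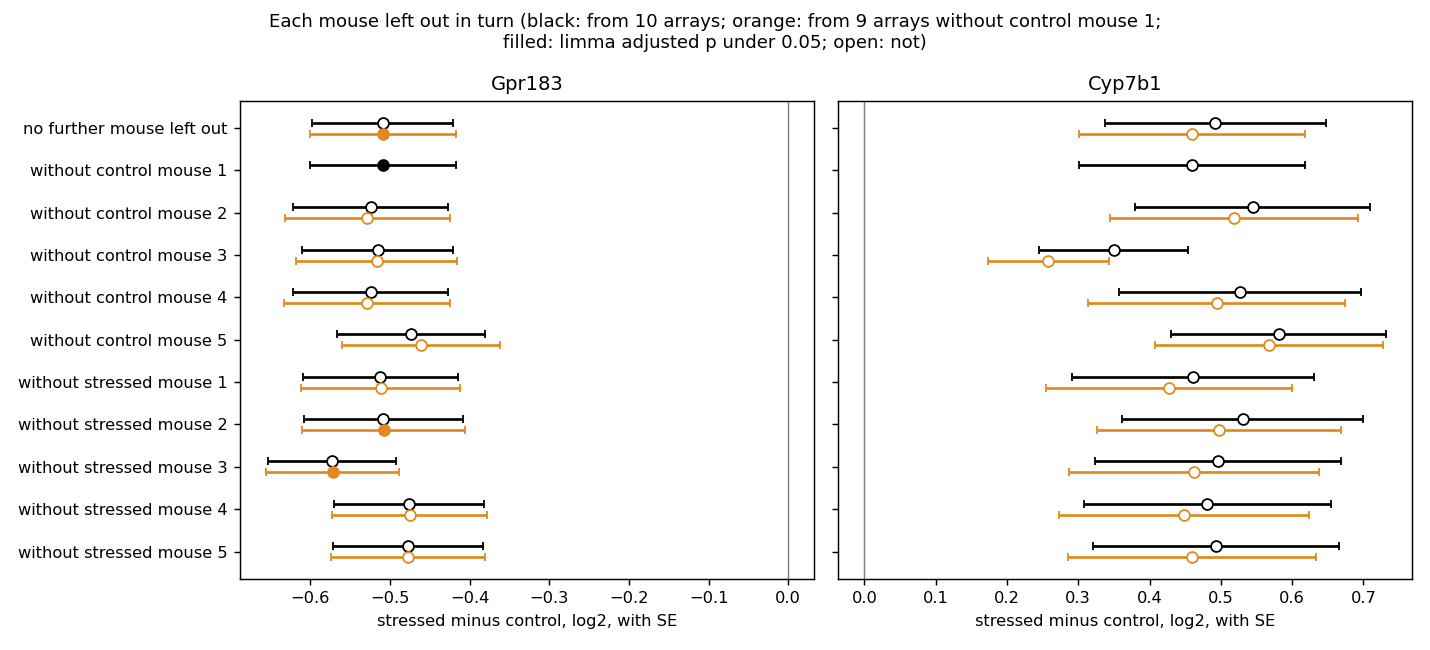
Difference of stressed minus control (horizontal axis, log2, with SE) for Gpr183 and Cyp7b1 with each mouse left out in turn, from 10 arrays in black and from the 9 without control mouse 1 in orange, filled where the limma adjusted p was under 0.05. Gpr183 stays between -0.57 and -0.46 in every row, and Cyp7b1 is smallest, at 0.26, without control mice 1 and 3.

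The second probe set of Gpr183, 1457691_at, gave the same order of the groups apart from control mouse 1. Control mice were at 4.70, 4.99, 5.12, 5.10 and 5.10, and stressed mice at 4.71, 4.56, 4.45, 4.65 and 4.76. Here control mouse 1 lay among the stressed mice, while control mice 2 to 5 were all above the highest stressed mouse. The difference was -0.38 ± 0.10 (SE) with all arrays, and -0.45 ± 0.08 (SE) without control mouse 1, where the limma adjusted p over all probe sets was 0.0507. The second probe set is thus a further reading of the same RNA samples, and its mice did not rank as in the first: stressed mouse 3 was the highest stressed mouse in one and the lowest in the other.

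Ch25h, the hydroxylase that starts the synthesis of the ligand, had 1 probe set, with a mean of 4.78 that was above only 49.7% of the probe sets on the array and not far above the floor of 4.15. Control mice were at 5.26, 4.74, 4.63, 4.82 and 4.69, and stressed mice at 5.13, 4.67, 4.53, 4.58 and 4.74. In each group mouse 1 was the highest, and the remaining 8 mice lay between 4.53 and 4.82 with the groups mixed. The log2 ratio of 3′ over 5′ signal of Actb and Gapdh, a measure of RNA integrity, was 1.13 in stressed mouse 1 against 0.51 to 0.70 in the other stressed mice, and 0.59 in control mouse 1 against 0.45 to 0.63 in the other controls. With this ratio as a covariate, the difference of Ch25h was -0.22 ± 0.13 (SE) with all arrays and -0.11 ± 0.09 (SE) without control mouse 1 (limma adjusted p of 0.778 and 0.552).

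No difference of Ch25h between the groups could be seen at this number of arrays. It was -0.10 ± 0.14 (SE) with all arrays, 95% interval -0.41 to 0.22 (limma adjusted p = 0.899). Without control mouse 1 it was 0.01 ± 0.11 (SE), 95% interval -0.24 to 0.26 (limma adjusted p = 0.974). The B cell list mean as a covariate gave -0.24 ± 0.15 (SE) with all arrays (limma adjusted p = 0.531). These intervals do not show that the groups were alike.

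Cyp7b1, the hydroxylase that completes the ligand, had 3 probe sets. At the chosen one, 1421075_s_at, control mice were at 5.24, 5.59, 4.81, 5.51 and 5.73, and stressed mice at 5.99, 5.72, 5.85, 5.91 and 5.87. The stressed mice lay close together and the controls were spread out, with control mouse 3 lowest. The groups overlapped narrowly, since control mouse 5 was above stressed mouse 2.

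Means of Cyp7b1 were 5.38 ± 0.37 (SD, n = 5) in controls and 5.87 ± 0.10 (SD, n = 5) in stressed mice, 1.41-fold apart. The difference of 0.49 ± 0.15 (SE) with all arrays, 95% interval 0.15 to 0.83, ranked 265 by p (unadjusted p = 0.00860) and missed the threshold (limma adjusted p = 0.444). With 9 arrays it was 0.46 ± 0.16 (SE), at an adjusted p of 0.168 in limma. Among all genes, 7.82% had an unadjusted p under 0.05 with all arrays and 18% without control mouse 1. Leaving out control mouse 3 as well brought the difference down to 0.26 ± 0.09 (SE, limma adjusted p = 0.217). Array weights brought it to 0.31 with all arrays, and the mean of all 3 probe sets, 1 of them below the floor, to 0.23 (limma adjusted p of 0.208 and 0.571).

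The second probe set of Cyp7b1, 1421074_at, was at 5.20, 5.30, 4.98, 5.33 and 5.67 in controls and at 5.73, 5.72, 5.70, 5.78 and 5.52 in stressed mice. It too had control mouse 3 lowest and control mouse 5 highest among controls, and 4 of 5 stressed mice above every control. The share of all genes with such an order was not counted. It differed by 0.39 ± 0.12 (SE) with all arrays (limma adjusted p over probe sets = 0.479) and by 0.37 ± 0.12 (SE) without control mouse 1. The third, 1446995_at, was at 1.69 to 2.35 in all mice, far below the filter floor of 4.15, and differed by -0.20 ± 0.11 (SE) with all arrays.

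Hsd3b7, the dehydrogenase that inactivates the ligand, was measured by 1 probe set, well above background. Control mice were at 8.44, 8.08, 8.10, 8.07 and 8.10, and stressed mice at 7.85, 7.97, 8.13, 8.16 and 7.98. Control mice 2 to 5 were nearly equal, control mouse 1 stood above them, and the stressed mice lay on both sides of them. The difference was -0.14 ± 0.10 (SE) with all arrays (limma adjusted p = 0.775). With 9 arrays it was -0.07 ± 0.08 (SE), 95% interval -0.24 to 0.10 (limma adjusted p = 0.670).

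**Figure D3:**
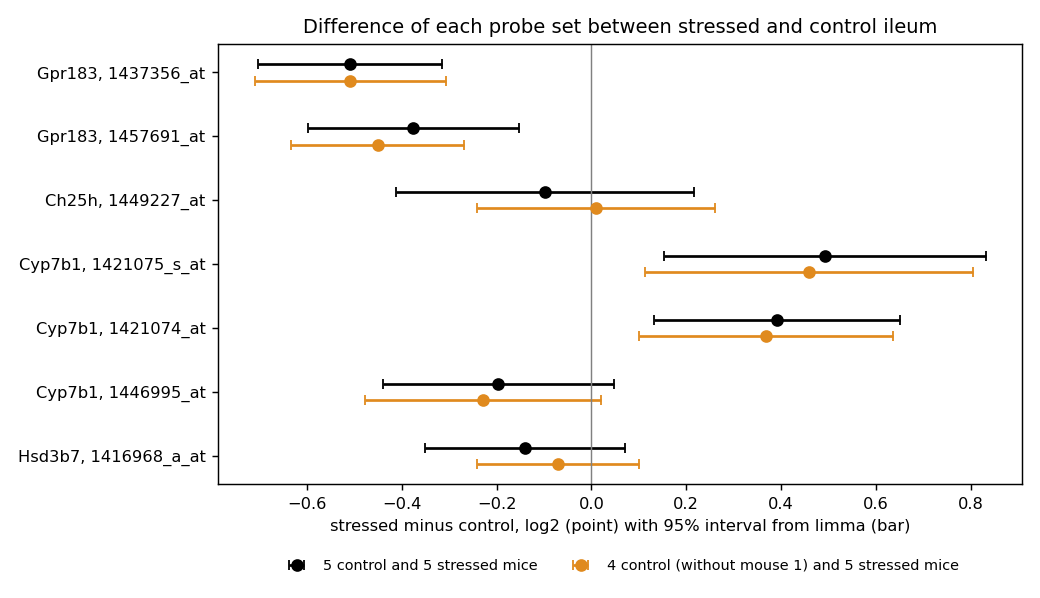
Stressed minus control on the log2 scale (horizontal axis, point) with its 95% interval (bar) for each probe set, with all arrays in black and without control mouse 1 in orange. The intervals of both probe sets of Gpr183 lie below 0 and those of the 2 probe sets of Cyp7b1 above the floor lie above 0, while those of Ch25h and Hsd3b7 span 0; an interval away from 0 is not an adjusted call.

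Limma called 0 of the genes around this pathway, where it called 0% of all genes with all arrays and 0.798% without control mouse 1. Of 20 listed sterol hydroxylases and oxysterol enzymes other than the members, 13 were measured above the floor. Of these 8 were higher and 5 lower in either comparison, 0 were called by limma, and 2 with all arrays and 5 without control mouse 1 were at an unadjusted p under 0.05. Their median difference was 0.12 with all arrays and 0.09 without control mouse 1, against 0.003 and 0.025 over all genes tested. Over all genes, 50.9% were higher and 49.1% lower with all arrays, and 56.2% and 43.8% without control mouse 1. An unadjusted p under 0.05 was reached by 7.82% of all genes with all arrays and by 18% without control mouse 1. Hsd11b1, which regenerates active glucocorticoid and also acts on oxidised oxysterols, was at 7.06 to 7.36 in control mice 2 to 5, at 7.76 in control mouse 1 and at 6.97 to 7.05 in stressed mice. It differed by -0.32 ± 0.12 (SE) with all arrays (limma adjusted p = 0.552). Hsd17b4, a peroxisomal enzyme that shortens the side chain of bile acid precursors, differed by 0.38 ± 0.16 (SE, limma adjusted p = 0.606) with all arrays. Cyp27a1, which makes the side-chain oxysterol that Cyp7b1 also takes as a substrate, was singled out after its values were seen. It differed by 0.18 ± 0.20 (SE) with all arrays and by 0.35 ± 0.16 (SE) without control mouse 1 (limma adjusted p = 0.271), and control mouse 1 was its highest sample at 8.29. Hsd11b2, which inactivates glucocorticoid, was likewise singled out after its values were seen. It was at 10.2 in control mouse 1, 7.85 to 8.09 in the other controls and 8.10 to 8.81 in stressed mice, and differed by 0.05 ± 0.40 (SE) with all arrays and by 0.49 ± 0.13 (SE) without control mouse 1 (limma adjusted p = 0.101).

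Oxysterol-binding proteins carry sterols between membranes and were all measured, 12 of 12. Of them 7 were higher and 5 lower in either comparison, and limma called 0, with 4 at an unadjusted p under 0.05 in each. The share of all genes at that p was 7.82% with all arrays and 18% without control mouse 1. Osbpl6 came closest to a call. It was at 4.79 in control mouse 1, 5.36 to 6.17 in the other controls and 6.26 to 6.70 in stressed mice, so that every stressed mouse was above every control, as for 1.16% of all genes with all arrays and 4.51% without control mouse 1. It differed by 0.90 ± 0.21 (SE) with all arrays (adjusted p = 0.329 in limma) and by 0.71 ± 0.15 (SE) without control mouse 1 (limma adjusted p = 0.0517). Osbpl7 differed by -0.25 ± 0.10 (SE) with all arrays (limma adjusted p = 0.582).

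LXR receptors are the nuclear sensors of oxysterols, and SREBP-2 drives cholesterol synthesis until oxysterols hold it back. Of 12 measured LXR genes and targets, 11 were higher with all arrays and 8 without control mouse 1. Among the 22 genes measured of SREBP-2 and cholesterol synthesis, 19 were higher with all arrays and 9 without control mouse 1. Most of that shift came with control mouse 1: the mean of the LXR list was 7.64 there, 8.76 to 8.92 in the other controls and 8.86 to 9.07 in stressed mice, and that of the synthesis list 8.28, 9.03 to 9.31 and 8.99 to 9.34. The median differences came down from 0.24 to 0.09 and from 0.18 to -0.006 when it was left out. Limma called 0 genes of either list. With all arrays 0 and 1 of them were at an unadjusted p under 0.05, and without control mouse 1 the numbers were 3 and 4. The share of all genes at that p was 7.82% with all arrays and 18% without control mouse 1.

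The leading genes of these lists stayed below the threshold. Among LXR targets, the lipoprotein gene Apoe differed by 0.21 ± 0.11 (SE) and the desaturase gene Scd2 by 0.42 ± 0.24 (SE) with all arrays (limma adjusted p of 0.700 and 0.736). In the cholesterol list, Stard4, a carrier of cholesterol inside the cell, differed by 0.39 ± 0.12 (SE, limma adjusted p = 0.408) with all arrays. Insig2, which holds SREBP in the endoplasmic reticulum, differed by -0.26 ± 0.14 (SE, limma adjusted p = 0.734) with all arrays. Without control mouse 1 the differences of Stard4 and Insig2 were 0.33 ± 0.10 (SE) and -0.35 ± 0.12 (SE).

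**Figure D4:**
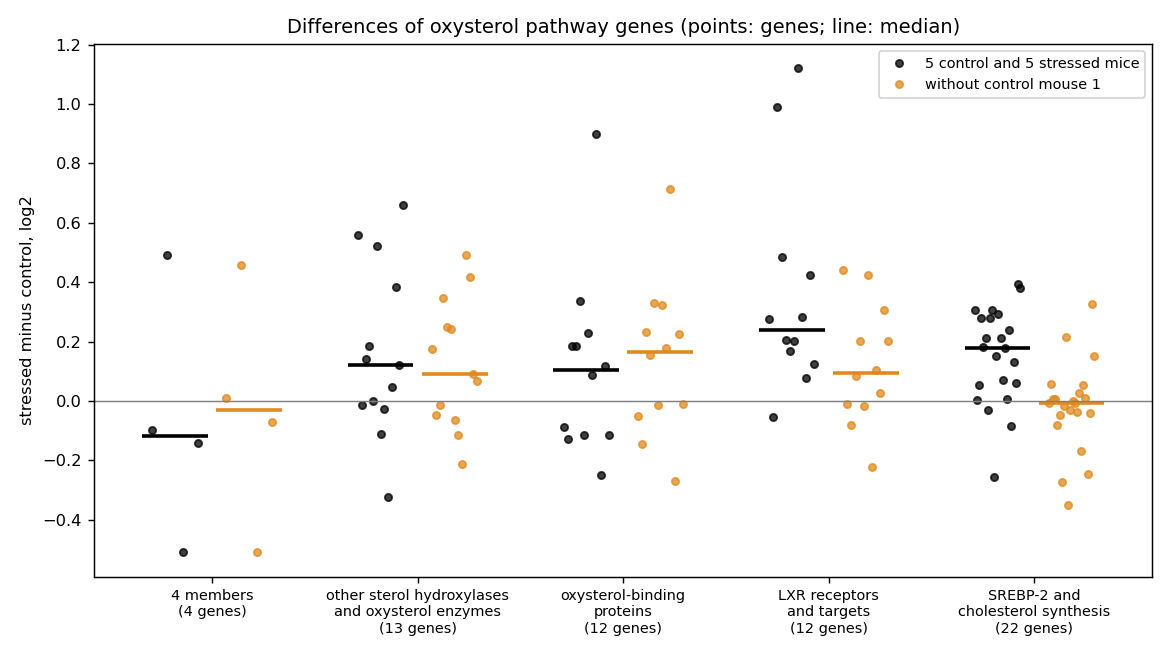
Stressed minus control on the log2 scale (vertical axis) for each measured gene (points) and the median (line) of the 4 genes and of 4 lists around them, with all arrays in black and without control mouse 1 in orange. The medians of the LXR and cholesterol synthesis lists come down from 0.24 and 0.18 to 0.09 and -0.006 without control mouse 1, while Gpr183 and Cyp7b1 keep their places.

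Gpr183 was set beside other receptors that guide lymphoid cells. Of 21 listed, 14 were measured, and 10 were lower with all arrays and 13 without control mouse 1, with medians of -0.18 and -0.24. Of all genes, 49.1% and 43.8% were lower in these comparisons. An unadjusted p under 0.05 was reached by 7.82% and 18% of all genes, and 0% and 0.534% were called lower. Limma called 0 with all arrays, where 4 were at an unadjusted p under 0.05, and 1 without control mouse 1. That gene was Ccr10, the homing receptor of IgA plasma cells, which fell by 0.67 ± 0.13 (SE, limma adjusted p = 0.0399). It was at 4.44 in control mouse 1, beneath all stressed mice, and differed by -0.44 ± 0.23 (SE) with all arrays. Gpr18, a lipid receptor of intraepithelial lymphocytes, differed by -0.44 ± 0.12 (SE) with all arrays (limma adjusted p = 0.373). The integrin gene Itga4, part of the gut-homing integrin, differed by -0.42 ± 0.12 (SE, limma adjusted p = 0.384) with all arrays.

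Most markers of cell types known to carry Gpr183 were also lower in stressed mice. The part of these cells in the difference of Gpr183 was not settled. Only the B cell list mean was tried as a covariate, and it could not be separated from the groups. The background for each list below is the share of all genes. With all arrays 49.1% were lower, 7.82% had an unadjusted p under 0.05 and 0% were called lower. Without control mouse 1 these shares were 43.8%, 18% and 0.534%. Most ileal enterocyte markers were higher. Of 13, all were higher in stressed mice with all arrays, where limma called 0 and 3 were at an unadjusted p under 0.05, and 11 were higher without control mouse 1, with medians of 0.68 and 0.12. The 2 called without control mouse 1 were the bile acid-induced hormone gene Fgf15, which rose by 1.73 ± 0.32 (SE, limma adjusted p = 0.0347), and the endocytic receptor gene Cubn, which rose by 0.70 ± 0.11 (SE, limma adjusted p = 0.0245). Over all genes, 109 (0.798%) were called without control mouse 1, 73 of them (0.534%) lower. The part of the enterocyte markers in the difference of Gpr183 was not tested.

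The B cell and follicle list had 10 of 16 genes above the floor, and all 10 were lower in either comparison. Cr2, Fcer2a, Blk, Pax5 and Fcrla were below the floor. The list mean was 4.90 in control mouse 1, 5.40 to 6.58 in the other controls and 5.12 to 5.34 in stressed mice. For Gpr183 control mouse 1 was in the upper group, whereas for this list it was the lowest of all 10 samples.

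With the B cell list mean as a covariate, Gpr183 differed by -0.46 ± 0.10 (SE) with all arrays (limma adjusted p = 0.200). Without control mouse 1 it differed by -0.36 ± 0.13 (SE, limma adjusted p = 0.323). There the covariate did not overlap between the groups, and with all arrays it overlapped only through control mouse 1. This setting therefore cannot tell the part of B cells from the difference between the groups. Over all genes that setting called 0 without control mouse 1, where 1723 were at an unadjusted p under 0.05. Limma called 0 B cell genes with all arrays and 2 at an unadjusted p under 0.05, and called 2 without control mouse 1. These were Ly6d (-1.03 ± 0.16, SE, adjusted p = 0.0245 in limma), a surface protein of immature lymphocytes, and Pou2af1 (-1.28 ± 0.24, SE, adjusted p = 0.0372 in limma), a coactivator of B cells. All 5 stressed mice had more of each than control mouse 1. Ltb, the lymphotoxin gene that lymphoid tissue needs to form, differed by -0.43 ± 0.15 (SE, limma adjusted p = 0.496) with all arrays.

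**Figure D5:**
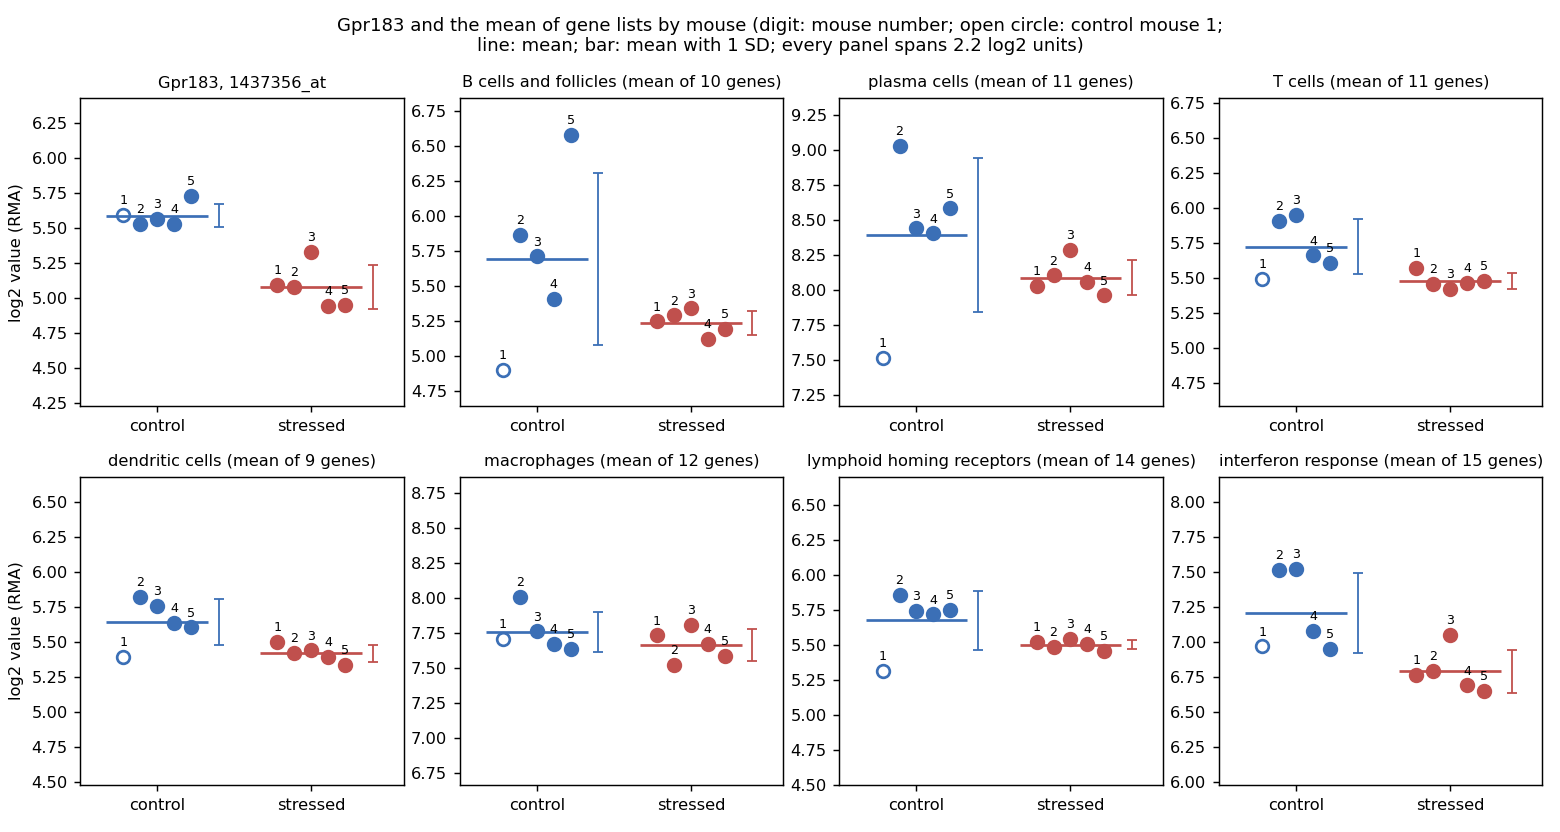
Log2 value of Gpr183 (first panel) and mean log2 value of 7 gene lists (vertical axes) in 5 control and 5 stressed mice, with a digit for the mouse number, an open circle for control mouse 1, a line for the mean and a bar for 1 SD. Control mouse 1 is at 5.59 for Gpr183, inside the controls, and at 4.90 for B cells and 7.51 for plasma cells, below every stressed mouse.

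Dendritic cells use Gpr183 to reach their place in lymphoid tissue. Of 11 listed genes, 9 were measured (Xcr1 was below the floor), and all 9 were lower in either comparison. The list mean was 5.39 in control mouse 1, 5.60 to 5.82 in the other controls and 5.33 to 5.50 in stressed mice. Limma called 0 with all arrays, where 4 were at an unadjusted p under 0.05, and 2 without control mouse 1. Of all genes, 7.82% were at that p with all arrays and 0.534% were called lower without control mouse 1. Ccl22, a chemokine of mature dendritic cells, fell by 0.54 ± 0.08 (SE, adjusted p = 0.0245 in limma). The transcription factor Irf4 fell by 0.81 ± 0.13 (SE, limma adjusted p = 0.0262), but control mouse 1, at 4.57, was below all stressed mice (4.67 to 4.97). With all arrays they differed by -0.49 ± 0.09 (SE) and -0.60 ± 0.22 (SE). Itgae, the integrin of mucosal dendritic and intraepithelial T cells, differed by -0.37 ± 0.13 (SE, limma adjusted p = 0.520) with all arrays.

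T cell genes were lower in 10 of 11 measured members of 14 listed in either comparison, with a list mean of 5.49 in control mouse 1, 5.61 to 5.95 in the other controls and 5.42 to 5.57 in stressed mice. Limma called 0 of them, with 3 at an unadjusted p under 0.05 with all arrays and 7 without control mouse 1. The T cell receptor chains Cd3g and Cd3d differed by -0.80 ± 0.23 (SE, limma adjusted p = 0.408) and -0.46 ± 0.15 (SE, limma adjusted p = 0.467) with all arrays. Plasma cell genes were lower in 10 of 11 in either comparison, with a list mean of 7.51 in control mouse 1, 8.41 to 9.03 in the other controls and 7.96 to 8.29 in stressed mice. There limma called 0 with all arrays, with 2 at an unadjusted p under 0.05, and 2 without control mouse 1. Mzb1, a chaperone of antibody assembly, and Jchain, which joins IgA, were the pair called, at -1.36 ± 0.26 (SE) and -0.85 ± 0.15 (SE), and all 5 stressed mice had more of each than control mouse 1. The leading genes with all arrays went opposite ways: Sdc1, a surface proteoglycan that epithelium also expresses, differed by 0.34 ± 0.11 (SE) and Eaf2 by -0.80 ± 0.33 (SE), with limma adjusted p of 0.443 and 0.600. Without control mouse 1 their differences were 0.36 ± 0.11 (SE) and -1.08 ± 0.25 (SE).

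Group 3 innate lymphoid cells could not be judged, since 4 of 12 listed genes were measured. Il17a, Ncr1, Tnfsf11 and Tnfsf4 were below the floor, and the others were not analysed here. Of the 4, 2 were lower with all arrays and 1 without control mouse 1, and limma called 0, with 1 at an unadjusted p under 0.05 in each. Id2, a transcription factor of innate lymphoid cells that many other cells express, differed by 0.48 ± 0.11 (SE, limma adjusted p = 0.329) with all arrays. The cytokine receptor Il1r1 differed by -0.22 ± 0.21 (SE, limma adjusted p = 0.828) with all arrays. Without control mouse 1 the differences of Id2 and Il1r1 were 0.48 ± 0.12 (SE) and 0.009 ± 0.094 (SE).

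The list means of stromal cells and macrophages overlapped between the groups. The mean of 12 fibroblast and stromal genes was 8.87 to 9.32 in controls and 8.81 to 9.49 in stressed mice, and limma called 0 of them, with 1 at an unadjusted p under 0.05 with all arrays and 3 without control mouse 1 (1 gene, Thy1, is also on the T cell list). Pdgfrb, a growth factor receptor of pericytes and fibroblasts, differed by 0.41 ± 0.13 (SE, limma adjusted p = 0.463) with all arrays. Grem1, a BMP antagonist of stromal cells near the crypts, differed by 0.71 ± 0.34 (SE, limma adjusted p = 0.659) with all arrays. Without control mouse 1 the differences of Pdgfrb and Grem1 were 0.43 ± 0.14 (SE) and 0.34 ± 0.16 (SE). The mean of 12 macrophage genes was 7.64 to 8.01 in controls and 7.53 to 7.81 in stressed mice. Of these 9 were lower in either comparison and limma called 0, with 3 at an unadjusted p under 0.05 in each. Cd14, a co-receptor for bacterial lipopolysaccharide, differed by -0.35 ± 0.14 (SE, limma adjusted p = 0.596) and the complement gene C1qc by -0.27 ± 0.11 (SE, limma adjusted p = 0.600) with all arrays.

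Interferon response genes were included because interferon induces Ch25h. Of 15 measured genes, 14 were lower with all arrays and 15 without control mouse 1, against 49.1% and 43.8% of all genes. Their medians were -0.32 and -0.35. Limma called 0 with all arrays, where 5 were at an unadjusted p under 0.05, and 1 without control mouse 1. This was Zbp1, a sensor of nucleic acids, which fell by 1.06 ± 0.19 (SE, limma adjusted p = 0.0342). Oas1a, an antiviral nucleotide synthase, differed by -0.49 ± 0.12 (SE, limma adjusted p = 0.345) with all arrays. The list mean was 6.97 in control mouse 1, 6.95 to 7.52 in the other controls and 6.65 to 7.05 in stressed mice. Stressed mouse 3, the highest stressed mouse for Gpr183 at the chosen probe set, was also the highest stressed mouse for this list. That was not particular to interferon genes, since it was also highest for the B cell, plasma cell, homing receptor and macrophage lists. It was the lowest stressed mouse for the T cell list and at the second probe set of Gpr183.

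The genes whose profiles were most like each of the 4 were taken by the lower of the Pearson correlations over 10 and over 9 arrays, as a description, since the best of 13666 genes are high by selection and share the group difference. For Gpr183 they were genes of white blood cells: Pstpip1, an adaptor of the cytoskeleton (r = 0.93 over 10 arrays and 0.94 over 9), Cd300lf, a receptor of myeloid cells (r = 0.92 and 0.92), and the tetraspanin gene Cd53 (r = 0.90 and 0.90). For Cyp7b1 they were Kdm2b, a histone demethylase (r = 0.98 and 0.98), Frem2, a protein of the basement membrane (r = 0.96 and 0.99), and Dner, a Notch ligand (r = 0.95 and 0.98). Those of Ch25h were Fzd3 (r = 0.87 and 0.90), Sars2 (r = 0.87 and 0.86) and Nkapd1 (r = 0.90 and 0.86). Those of Hsd3b7 were Adipor1 (r = 0.95 and 0.87), Babam2 (r = 0.87 and 0.86) and Tmem80 (r = 0.95 and 0.86).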

How the data were processed

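The deposited table gives log2 values of probe sets, 1 column per array, which the authors made with RMA per the submitters' processing notes. Its software and version are not given, and base 2 was inferred from the range, 1.22 to 14.4. The table held 45101 probe sets, 64 of them controls. Probe sets with 1 symbol in the platform annotation were used. The lowest 40 percent of probe sets by mean over 10 arrays were left out (floor 4.15), and of the remaining probe sets of a gene the one with the highest mean was taken. Differences, stressed minus control, were fitted in R 4.3.3 with limma 3.58.1 (lmFit, eBayes) and adjusted by Benjamini-Hochberg over 13666 genes. The fit was tested on simulated data. Group values are means with SD, differences have the SE of limma.

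The 4 genes, the 15 lists and the tests were chosen with earlier results of these data known. Of each list other than the ileal and large intestine lists, the 2 genes with the smallest p with all arrays and every called gene were named. The genes named from those 2 lists were chosen after their values were seen. Settings for low values, probe sets, weights, variance trend, covariates, a replicate block and each mouse left out were tried. Arrays carry no read depth, so their number limits the precision. Groups came from the sample titles. The labels describe each sample as that of a mouse.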

Additional observations from a re-analysis of the deposited data

Results flagged for a closer look

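Of 21 groups of values of the 7 probe sets (controls, controls without mouse 1, and stressed mice), 2 held a mouse far from the others by Dixon's test, which chance alone does in about 1 of 20 groups. The groups are not independent, since the controls enter with and without mouse 1 and all probe sets share the same mice. A count of 2 is therefore no sign of more such mice than chance gives. Hsd3b7 in control mouse 1 was at 8.44, where the next control was at 8.10. Cyp7b1 at its second probe set, 1421074_at, was at 5.52 in stressed mouse 5, where the next stressed mouse was at 5.70.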

How the results depend on the processing

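Gpr183 was lower and Cyp7b1 higher under every alternative that gave a value. With 9 arrays the call of Gpr183 was lost with each probe set as its own feature (-0.51, limma adjusted p = 0.0507), array weights (-0.47, 0.0520), the B cell list mean (-0.36, 0.323), the 3′ to 5′ ratio (-0.51, 0.0699) and the replicate block (-0.51, 0.0793). Under a floor at 60 percent, neither Gpr183 nor Ch25h was measured. Ch25h without control mouse 1, at 0.01, turned to -0.085 with array weights, -0.032 with the B cell list mean, -0.11 with the 3′ to 5′ ratio and -0.090 with the replicate block. With all arrays, at -0.10, it was -0.24 with the B cell list mean and -0.22 with the 3′ to 5′ ratio. With each mouse left out in turn, differences ranged with all arrays from -0.57 to -0.47 for Gpr183, -0.20 to 0.0099 for Ch25h, 0.35 to 0.58 for Cyp7b1 and -0.18 to -0.07 for Hsd3b7. With 9 arrays they ranged from -0.57 to -0.46, -0.090 to 0.060, 0.26 to 0.57 and -0.11 to -0.03.

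Limma called 0 genes with all arrays, 2 with the mean of all probe sets, 41 with array weights and 0 to 109 with a mouse left out. Without control mouse 1 the count of 109 became 64 with probe sets as features, 170 with a variance trend, 0 with the B cell list mean, 31 with the 3′ to 5′ ratio and 6 to 154 with a further mouse left out. The causes were not tested. The deviations of same-numbered mice correlated at -0.30 to 0.28 over 5 pairs, and 1 of 5 controls matched its own number best. So few pairs, with control mouse 1 among them, cannot tell whether the numbers pair the mice. The replicate block called 0 and 95 genes. Ch25h and Gpr183 lay near the floor, with Cyp7b1 not far above them. Their chosen probe sets had means above 49.7%, 57.5% and 61.0% of the probe sets on the array, in that order. The effect of such low values on their differences was not tested.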
